A study of Mus musculus with 9 samples.

Results

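The genes described here are 35 genes of glycolysis and of the response to low oxygen, taken as the rows with their exact gene symbols among the 38197 rows of a count table and an FPKM table. All 35 symbols were found. The RNA came from wild-type mouse embryonic stem cells of strain 129, grown as a monolayer and treated with retinoic acid (RA) and SAG, an agonist of Smoothened in the Sonic hedgehog pathway, so that they became ventral hindbrain neural progenitors. Progenitors were sorted magnetically on Prominin-1, a surface protein of neural stem cells, at 4.5, 5.5 and 6.5 days in differentiation conditions (4.5DDC, 5.5DDC and 6.5DDC), with 3 libraries at each time point and 9 in all. By the study's methods, the medium was replaced by one without RA and SAG before these time points and renewed at intervals after that. The series follows how these progenitors change with time. Total counts per library were 17820600, 11244489 and 14390493 for replicates 1, 2 and 3 of 4.5DDC, 25506192, 11573528 and 11066572 for 5.5DDC, and 12851795, 16479971 and 15913820 for 6.5DDC. In these libraries 3 counts, the limit that a count of 0 allows, correspond to 0.118 to 0.271 CPM (counts scaled to the library total), for counting error only. The study's methods call the samples counted in its figures biological replicates in general. Whether these libraries came from separate cultures is not stated in the sources used here, so p-values measure the spread between these libraries, which may in part be technical.

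Glycolysis splits glucose into pyruvate in the cytosol. Cells that make much lactate export it through monocarboxylate transporters, and neural stem cells are known for a more glycolytic metabolism than the neurons they give rise to. When oxygen is low, the HIF alpha proteins escape hydroxylation by the EGLN prolyl hydroxylases and are not degraded, pair with ARNT and bind the hypoxia response element, whose core is ACGTG or GCGTG. Many glycolytic genes, including Ldha, Pgk1 and Aldoa, are among their classic targets. The 35 genes fall into glucose transport, hexokinases, upper and lower glycolysis, lactate handling, flux regulators, oxygen sensing, and hypoxia targets outside glycolysis.

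Of the 35 genes, 33 had enough counts to be tested. The exceptions were Adm, which encodes the vasodilator peptide adrenomedullin, and Car9, a carbonic anhydrase of hypoxic cell surfaces. Adm was at most 0.442 FPKM (a read count scaled for transcript length and library size) with 0 to 11 counts, and Car9 at most 0.171 FPKM with 0 to 2 counts. The sorted cells were checked against their markers. All 11 progenitor markers passed the count filter, with Vim the most abundant at a mean of 1791 FPKM. Of 7 pluripotency markers, Pou5f1, Nanog, Zfp42, Esrrb and Tdgf1 were under 1 FPKM in all 9 libraries, while Dppa4 reached 2.34 and Dppa5a 1.4 FPKM. Neuron markers were present throughout, with Stmn2 the most abundant at a mean of 108 FPKM.

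Replicate 1 stood apart from replicates 2 and 3 at each time point. All 11 neuron markers were lower in it than the mean of the other 2 libraries at all 3 time points on the log2 CPM scale, although Map2, named after its values were seen, was at 4.5DDC at 46.3 FPKM in replicate 1 and 46.1 FPKM in replicate 2. Their summed level was 251, 215 and 403 FPKM in replicate 1 of 4.5DDC, 5.5DDC and 6.5DDC. In replicates 2 and 3 the sums were 644 and 432 FPKM at 4.5DDC, 736 and 757 FPKM at 5.5DDC, and 889 and 929 FPKM at 6.5DDC. The 5 endoderm markers tested were all higher in replicate 1. The summed level of all 9 endoderm markers, tested or not, was 46.1, 45.7 and 67.5 FPKM in replicate 1 against 21.8 to 35.9 FPKM in the other 6 libraries. Of these 9 endoderm markers, 3 were under 1 FPKM in all 9 libraries (Sox17, Afp and Amn). The others reached 1 FPKM in at least 1 library. Foxa1, also a floor plate gene, was the most abundant at a mean of 33.5 FPKM and made up most of the sum over the 9 libraries. In sorted cultures, fewer cells of a type and less RNA per cell cannot be told apart.

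The glycolysis and hypoxia genes also set replicate 1 apart, but in a direction that changed with time. Ldha, the lactate dehydrogenase subunit that favours the making of lactate, was at 302, 122 and 134 FPKM in replicates 1, 2 and 3 of 4.5DDC. It was at 76.0, 187 and 194 FPKM at 5.5DDC, and at 424, 55.0 and 82.7 FPKM at 6.5DDC. Replicate 1 was thus the highest library at 4.5DDC, the lowest at 5.5DDC and the highest at 6.5DDC, and the highest of all 9 Ldha values was 7.70 times the lowest. Bnip3, a mitochondrial outer membrane protein of mitophagy, was at 46.1, 21.2 and 39.8 FPKM at 4.5DDC, 23.7, 52.4 and 53.3 FPKM at 5.5DDC, and 135, 35.7 and 36.9 FPKM at 6.5DDC. Pgk1, the first enzyme of glycolysis to yield ATP, was at 118, 77.3 and 91.2 FPKM at 4.5DDC, 41.2, 89.5 and 99.3 FPKM at 5.5DDC, and 182, 53.3 and 51.7 FPKM at 6.5DDC. In both genes replicate 1 had the same place as for Ldha at each time point. The values of the 3 time points overlapped for each of these 3 genes. Their log2 fold changes at 6.5DDC against 4.5DDC were 0.03 (SE 0.73) for Ldha, 0.90 (SE 0.60) for Bnip3 and 0.07 (SE 0.52) for Pgk1, none past the test. The sign was not stable. Over 21 alternatives the value for Ldha ran from -1.507 to 0.5665 and was below 0 in 10, that for Pgk1 ran from -0.8401 to 0.3888 and was below 0 in 8, and that for Bnip3 was below 0 in 1, at -0.207 without replicate 1 of 6.5DDC. Without any library of replicate 1, an alternative chosen after seeing the data, Ldha and Pgk1 fell, by log2 fold changes of -0.97 and -0.73 (adjusted p of 0.0081 and 0.039 by edgeR's quasi-likelihood test).

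**Figure D1:**
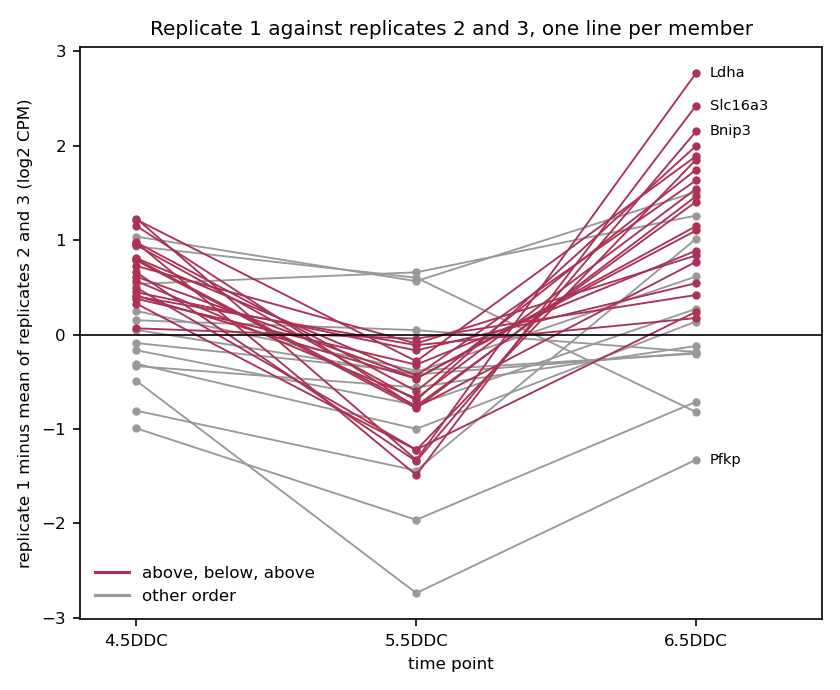
Difference in log2 CPM between replicate 1 and the mean of replicates 2 and 3 (vertical axis) at each time point (horizontal axis), with 1 line for each of the 33 genes tested. The 20 red lines run above 0, below 0 and above 0, and Ldha has the highest value at 6.5DDC, 2.77.

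On the log2 CPM scale, replicate 1 was above the mean of replicates 2 and 3 in 26 of 33 genes at 4.5DDC, below it in 29 of 33 at 5.5DDC and above it in 26 of 33 at 6.5DDC. The median differences were 0.50, -0.56 and 0.89. Over all 14742 genes tested, the medians were -0.04, 0.01 and 0.04, and replicate 1 was higher in 45.6%, 50.6% and 53.5% of genes. The sequence above, below, above was seen in 20 of the 33 genes, or 60.6%, and in 4.67% of all genes tested. This sequence was not in the plan. It is the one described above for Ldha, Bnip3 and Pgk1, which are among the 20, so the count is a description and not a test. It held in 13 of 23 glycolytic genes and 7 of 10 oxygen sensing and hypoxia target genes. The count was 20 with other scalings of the counts and 21 on log2(FPKM + 0.1). The largest differences at 6.5DDC were 2.77 for Ldha, 2.43 for the lactate exporter Slc16a3, 2.15 for Bnip3, 2.0 for triose phosphate isomerase Tpi1 and 1.89 for the phosphofructokinase Pfkl. At the other end was Pfkp, with differences of -0.49, -2.74 and -1.33.

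None of the 11 neuron markers, 5 endoderm markers or 7 proliferation markers showed that sequence. The 7 proliferation markers were all lower in replicate 1 than the mean of replicates 2 and 3 at 4.5DDC, with a median difference of -0.28 in log2 CPM, 6 of 7 were lower in it at 5.5DDC, and all 7 were higher in it at 6.5DDC, by a median of 0.74. Their summed level was 895, 1076 and 1159 FPKM at 4.5DDC, 612, 779 and 778 FPKM at 5.5DDC, and 585, 470 and 304 FPKM at 6.5DDC, with Top2a the most abundant and none of the 7 under 1 FPKM in all libraries. Among the other lists of related genes, the sequence was seen in 4 of 4 near-identical copies of glycolytic genes, 8 of 38 other hypoxia target genes, 3 of 18 pentose phosphate and glycogen genes, and 1 of 15 other glycolytic genes. It was seen in 1 of 13 other HIF pathway genes, 1 of 12 genes of pyruvate entry into mitochondria, 1 of 11 ATF4 stress targets and 0 of 10 Myc and growth regulators. The copies may share reads with the genes they resemble, which was not tested. The part of these marker genes and of depth in the pattern was not tested.

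**Figure D2:**
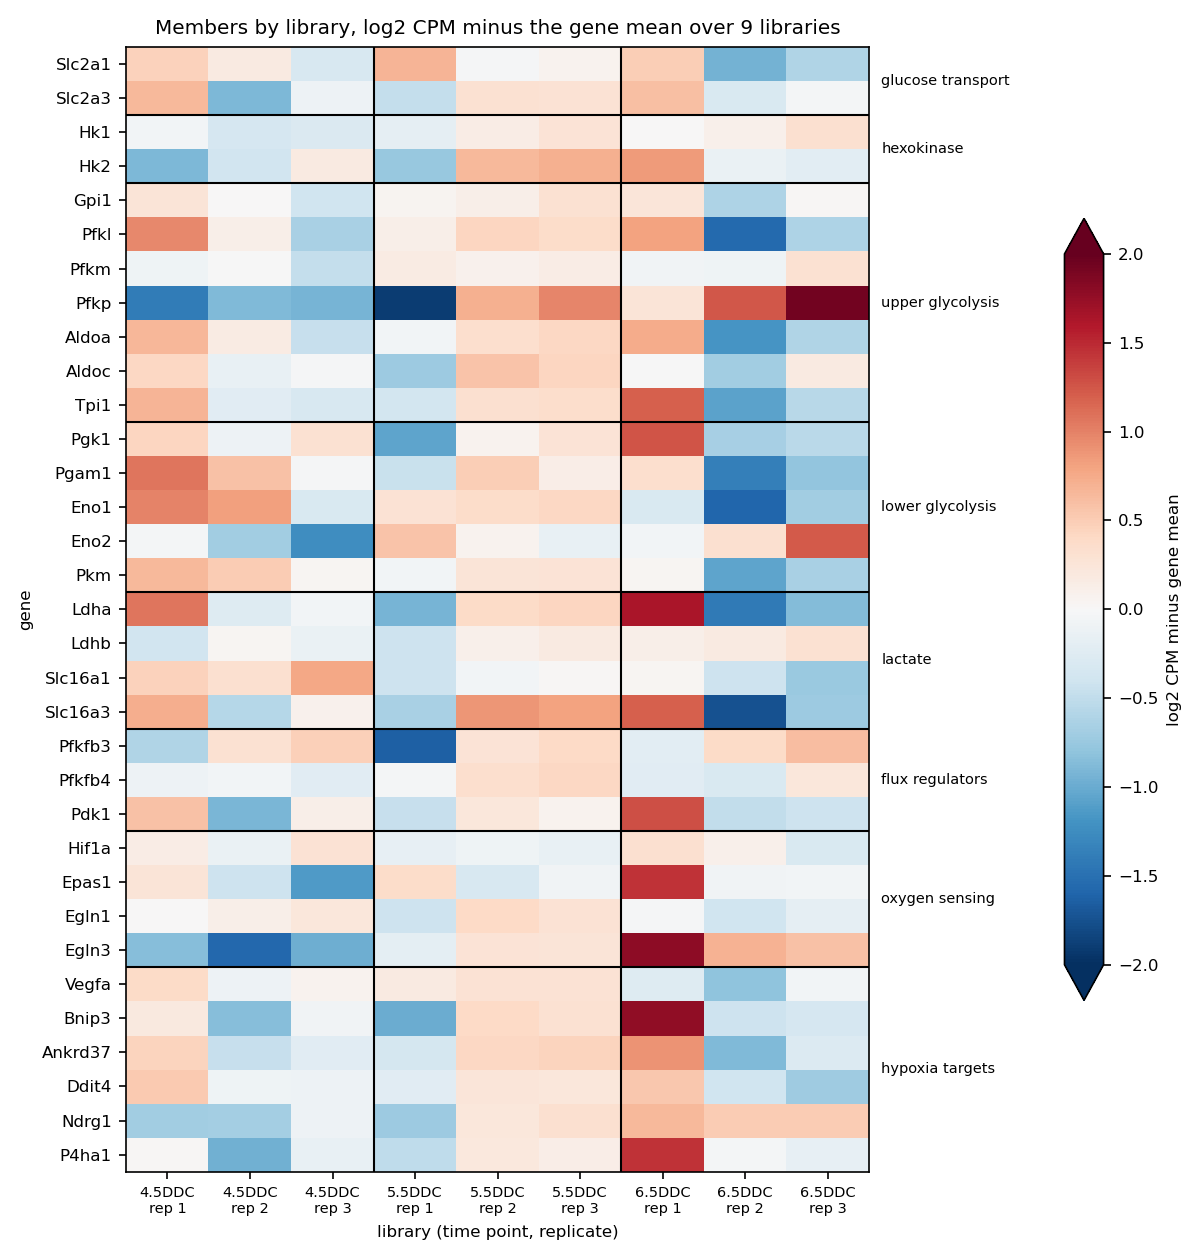
Log2 CPM minus the mean over the 9 libraries (colour, red above and blue below the mean) for the 33 genes tested, in rows by role, against the 9 libraries in columns. Among the libraries of 6.5DDC, replicate 1 is the highest in 24 of the 33 genes and replicate 2 the lowest in 21.

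Within time points, 26 of the 33 genes varied more between libraries than the median gene, and 7 did not. The median SD of the 33 was 0.56 on the log2 CPM scale, against 0.29 over all 14742 genes and 0.21 over the 7371 at or above the median abundance. Ldha, with an SD of 1.12, was at the 97.1 percentile of all genes, Slc16a3 at the 96.4, Pfkp at the 96.3 and Bnip3 at the 94.2 percentile. Hk1, the hexokinase of brain, and Pfkm, the muscle phosphofructokinase, had SDs of 0.18 and 0.19, at the 21.3 and 24.6 percentiles. Hif1a, Pfkfb4, Ldhb, Vegfa and Egln1 were also below the median, at the 33.5 to 48.2 percentiles. Between 5.5DDC and 6.5DDC, 19 genes were higher at the later time point in replicate 1 and lower in replicates 2 and 3, or 57.6% against 13.9% of all genes. Between 4.5DDC and 5.5DDC, 18 genes were lower at the later time point in replicate 1 and higher in the other 2 replicates, or 54.5% against 7.32% of all genes. Both counts use the same values as the sequence above, below, above, and do not add separate evidence to it. What libraries of the same number share is not stated, so these are differences between libraries with 1 number, not repeated measures of a culture.

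The 300-base windows around the start sites of 32 of the 35 genes were taken from the RefSeq promoter table of build GRCm38.p6. No window was listed for Slc2a3, Epas1 and Ndrg1. They were searched on both strands for ACGTG and for GCGTG, which can share bases with each other and with CACGTG, the E-box. The ACGTG core was present in 54.3% of the 46 windows of these genes, 19.6% of all 32851 windows and 25.2% of the 12913 windows of genes tested. GCGTG was present in 56.5%, 32.4% and 50.1%, and CACGTG in 13%, 7.15% and 9.75%. Windows of genes tested held a median of 20 CG pairs, as did those of the 35 genes, against 7 over all windows. Of the 32 genes, 29 had a core in at least 1 window, or 90.6%, against 68.1% of 9997 genes tested and 46.7% of all 27025 genes, and Eno2, Gpi1 and Tpi1 had none.

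The windows of 4 genes are printed 5′ to 3′ on the strand of the gene, with ACGTG and GCGTG on either strand in capitals. Ldha, Bnip3 and Pgk1 are shown because they swung together between libraries, and Egln3 because it is the gene of the 35 with the smallest adjusted p over time. Ldha (chr7:46845554-46845853, + strand) held 7 cores, Bnip3 (chr7:138909457-138909756, - strand) 5, Pgk1 (chrX:106186850-106187149, + strand) 2 and Egln3 (chr12:54203825-54204124, - strand) 1. Cores were counted on each strand, so that every CACGTG adds 2. Ldha has another window in the table, not printed (chr7:46846832-46847131, + strand), with 0 ACGTG and 2 GCGTG. A match is a description of these letters and does not show a site in use. Tpi1, which also ran above, below and above, had 0 cores, and Slc16a1, which did not, had 5. Whether the number of cores goes with the swing between libraries was not tested.
Ldha: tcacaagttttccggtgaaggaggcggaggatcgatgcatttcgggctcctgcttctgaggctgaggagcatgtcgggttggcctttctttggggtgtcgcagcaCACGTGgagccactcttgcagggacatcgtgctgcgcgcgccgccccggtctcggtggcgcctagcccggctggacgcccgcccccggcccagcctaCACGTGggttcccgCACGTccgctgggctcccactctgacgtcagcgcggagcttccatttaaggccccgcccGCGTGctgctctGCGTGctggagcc
Bnip3: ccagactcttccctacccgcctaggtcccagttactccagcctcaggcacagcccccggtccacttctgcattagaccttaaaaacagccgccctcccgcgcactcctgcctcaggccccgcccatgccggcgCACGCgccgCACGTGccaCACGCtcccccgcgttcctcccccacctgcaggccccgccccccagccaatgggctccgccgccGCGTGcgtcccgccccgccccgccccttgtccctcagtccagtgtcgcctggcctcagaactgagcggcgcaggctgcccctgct
Pgk1: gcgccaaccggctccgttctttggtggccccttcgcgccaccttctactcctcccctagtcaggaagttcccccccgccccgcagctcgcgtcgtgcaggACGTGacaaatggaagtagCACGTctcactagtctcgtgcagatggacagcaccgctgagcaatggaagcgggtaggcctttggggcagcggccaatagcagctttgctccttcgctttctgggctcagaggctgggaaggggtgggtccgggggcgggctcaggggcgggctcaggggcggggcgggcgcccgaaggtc
Egln3: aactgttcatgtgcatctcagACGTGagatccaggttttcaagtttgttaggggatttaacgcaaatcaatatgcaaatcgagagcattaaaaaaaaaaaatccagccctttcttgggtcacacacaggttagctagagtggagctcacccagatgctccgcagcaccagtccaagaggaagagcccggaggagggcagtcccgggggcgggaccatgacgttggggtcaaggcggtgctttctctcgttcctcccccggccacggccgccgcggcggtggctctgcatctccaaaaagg

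Between 4.5DDC and 6.5DDC, 3 of the 33 genes rose and 3 fell by edgeR, quasi-likelihood with Benjamini-Hochberg adjustment over 14742 genes. Each count is 9.09% of the genes tested, close to the background of 9.21% of all genes higher and 9.53% lower. The median log2 fold change was 0.07 for the 33 genes and 0.00398 for all genes. Egln3, Pfkp and Ndrg1 rose, and Eno1, Pkm and Slc16a1 fell. The number of genes called depended on single libraries, as did that over all genes. It was 3 without replicate 1 of 4.5DDC (Egln3, Slc16a1 and Eno2, which is not among the 6), or 9.09% against 14.8% of all genes, and 2 without replicate 2 of 4.5DDC (Egln3 and Slc16a1), or 6.06% against 7.61%. It was 1, Egln3, or 3.03%, without replicate 2 or without replicate 3 of 6.5DDC, against 7.56% and 13.9%. Without replicate 1 of 6.5DDC it was 9, or 27.3% against 20.7%, with Aldoa, Eno2, Pgam1 and Slc2a1 added and Ndrg1 lost. With all 9 libraries the shares were 18.2% and 18.7%. FPKM values of 6.5DDC lay above all those of 4.5DDC in 2 of the 33 genes (background 17.9%) and below them in 3 (background 16.7%).

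**Figure D3:**
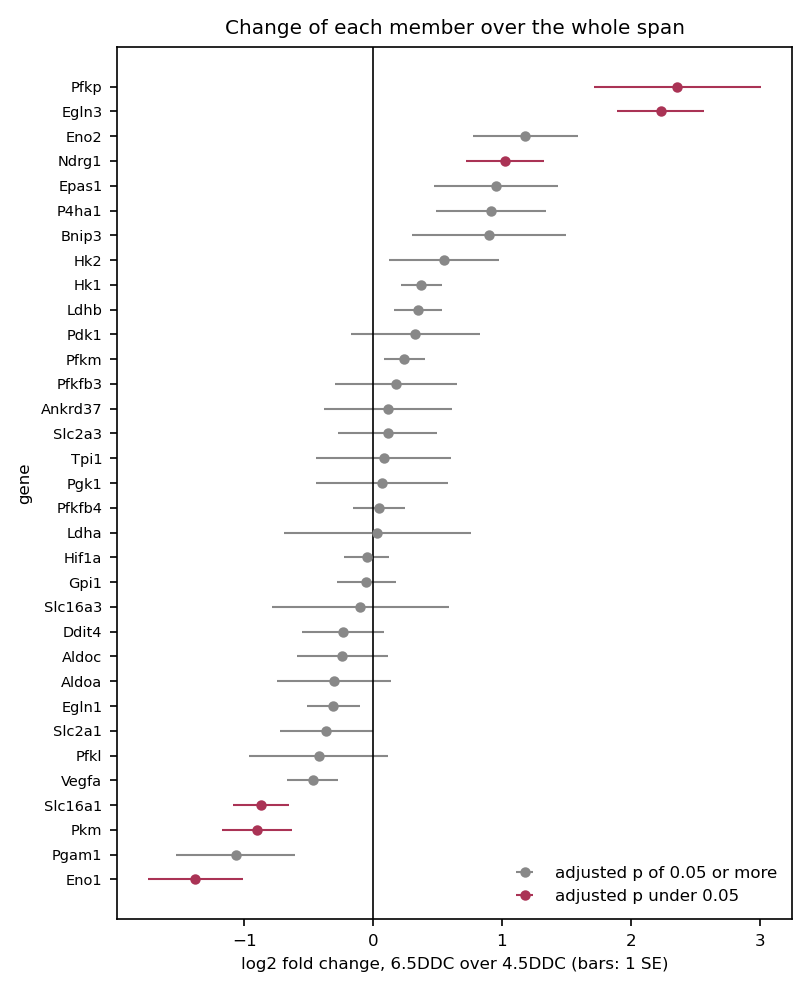
Log2 fold change from 4.5DDC to 6.5DDC (horizontal axis, bars 1 SE) for the 33 genes tested (vertical axis). The 6 genes in red had an adjusted p under 0.05 by edgeR's quasi-likelihood test, from Pfkp at 2.36 to Eno1 at -1.38.

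Egln3 encodes a prolyl hydroxylase that marks HIF alpha for degradation and is itself a HIF target. It was at 10.7, 6.57 and 9.34 FPKM in replicates 1, 2 and 3 of 4.5DDC, 17.1, 23.9 and 23.6 FPKM at 5.5DDC, and 64.7, 30.8 and 30.1 FPKM at 6.5DDC. The values of the 3 time points did not overlap, and replicate 1 of 6.5DDC was the highest. Egln3 lies on chromosome 12 (54178981 to 54203860, - strand, build GRCm38) and no exon of another gene overlaps its own. The log2 fold change was 2.23 (SE 0.34, n = 3 and 3, adjusted p = 0.00331 by edgeR, quasi-likelihood with Benjamini-Hochberg adjustment), and 6.5DDC was higher for all 3 replicate numbers. It remained called in all 21 alternative settings, at an adjusted p of 0.0188 or less.

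Egln3 was also the only gene of the 33 to differ across the 3 time points (adjusted p = 0.0106 by edgeR's quasi-likelihood test), that is 3.03% against 9.63% of all genes. The count was 2 without replicate 3 of 4.5DDC (6.06% against 4.54% of all genes in the same fit), 3 without replicate 1 of 5.5DDC (9.09% against 10.5%) and 3 without replicate 1 of 6.5DDC (9.09% against 12.1%). It was 2, or 6.06%, without scaling, in limma voom without normalization and with the replicate number as a block, against 10.2%, 9.56% and 14.8% of all genes. Without a filter on low counts it was 4 of 35 (11.4% against 6.85%). It was 6, or 18.2%, in DESeq2 and with a term for replicate 1, against 20.2% and 22.3%. Without any library of replicate 1, chosen after seeing the data, it was 15 (45.5% against 22.7%). Egln3 was called in each of these.

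The paralog Egln1, the main oxygen sensor in most cells, was at 18.5, 20.2 and 20.0 FPKM at 4.5DDC, 14.1, 24.6 and 22.5 FPKM at 5.5DDC, and 17.6, 13.6 and 16.5 FPKM at 6.5DDC. All 3 values of 6.5DDC were below those of 4.5DDC, but the log2 fold change of -0.31 (SE 0.20) did not pass (adjusted p = 0.306 by edgeR's quasi-likelihood test). Hif1a, the main HIF alpha subunit, ranged from 49.5 to 70.6 FPKM, with a log2 fold change of -0.05 (SE 0.17), and its mRNA does not report on the stability of its protein. Epas1, which encodes the second HIF alpha subunit, was at 0.579 to 3.68 FPKM. Its highest value was replicate 1 of 6.5DDC, and its log2 fold change of 0.95 (SE 0.48) did not pass (adjusted p = 0.186 by edgeR's quasi-likelihood test). It passed in edgeR when replicates were blocked by number (0.89, adjusted p = 0.0491) and with a term for replicate 1 (0.88, adjusted p = 0.029), and was 0.25 without replicate 1 of 6.5DDC (adjusted p = 0.669).

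Pfkp, the platelet-type isozyme of phosphofructokinase, the committed step of glycolysis, was at 3.36, 3.79 and 3.88 FPKM at 4.5DDC. It was at 1.73, 14.5 and 16.9 FPKM at 5.5DDC and at 11.6, 19.2 and 28.4 FPKM at 6.5DDC. All values of 6.5DDC were above those of 4.5DDC, and replicate 1 was the lowest of its time point throughout. The log2 fold change was 2.36 (SE 0.65, n = 3 and 3, adjusted p = 0.0335 by edgeR, quasi-likelihood with Benjamini-Hochberg adjustment). The call was lost without replicate 1, 2 or 3 of 4.5DDC or replicate 2 or 3 of 6.5DDC, at adjusted p of 0.0867, 0.0972, 0.078, 0.0822 and 0.0876 in edgeR. It was also lost in limma voom without normalization (adjusted p = 0.0817), where both the tool and the scaling differ, and in limma on log2(FPKM + 1) and log2(FPKM + 0.1), at 0.0714 and 0.0955, so that Pfkp was called in 13 of 21 alternatives.

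Within phosphofructokinase, the share of Pfkp in the summed FPKM of Pfkl, Pfkm and Pfkp was 4.82%, 7.01% and 11.5% at 4.5DDC. It was 3.18%, 20.3% and 22.7% at 5.5DDC, and 16.1%, 38.9% and 38.1% at 6.5DDC. The means were 7.76% ± 3.39 (SD, n = 3) at 4.5DDC and 31.0% ± 12.9 (SD, n = 3) at 6.5DDC, with no overlap (exact two-sided permutation test, p = 0.1, the smallest p that 3 against 3 libraries allow, and 0.5 after Benjamini-Hochberg adjustment over 15 shares). The share of Pfkl was 50.2% ± 11.6 at 4.5DDC and 29.6% ± 20.4 at 6.5DDC (SD, n = 3), and ran from 15.3% to 53.0% at 6.5DDC. Pfkm stayed within 30.9% to 50.7% over the 9 libraries.

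**Figure D4:**
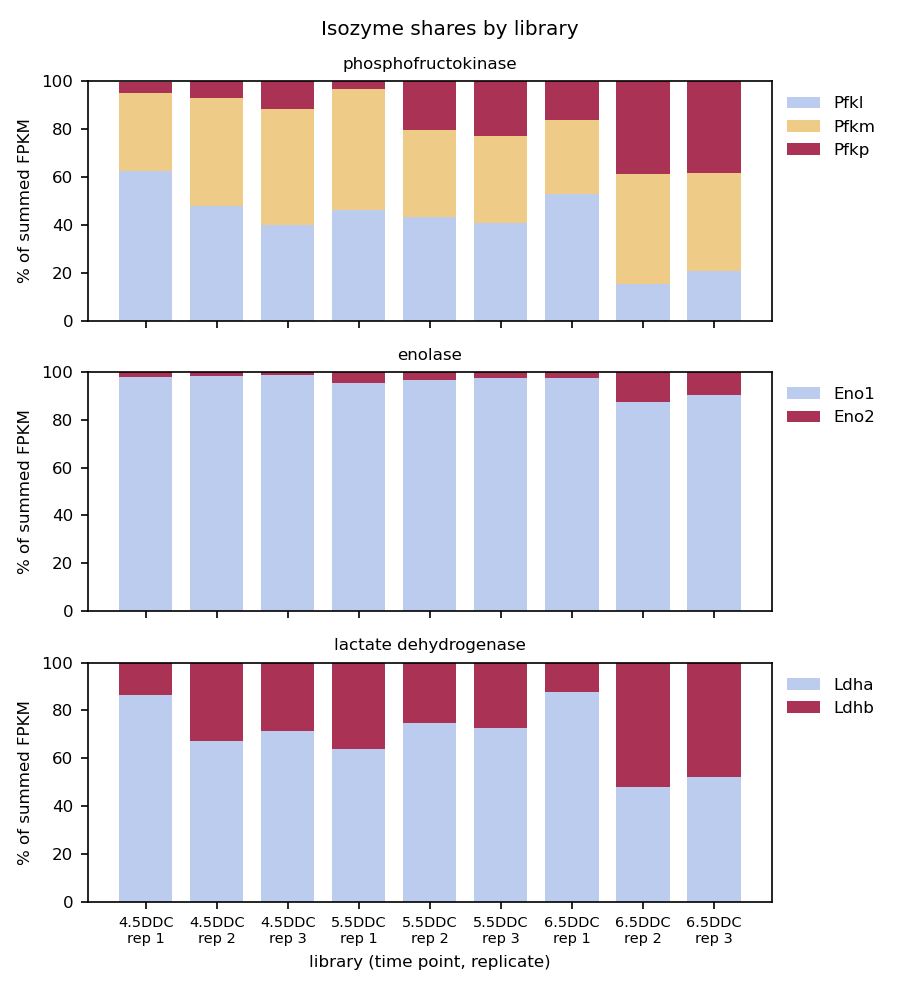
Share of each isozyme in the summed FPKM of its enzyme (vertical axis, percent) in each of the 9 libraries (horizontal axis) for phosphofructokinase, enolase and lactate dehydrogenase. Pfkp reaches 38.9% and Ldhb 52.2% in replicate 2 of 6.5DDC, against 16.1% and 12.1% in replicate 1.

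Eno1 and Pkm, which carry out the last steps of the pathway before pyruvate, fell. Eno1, the ubiquitous enolase, was at 249, 192 and 104 FPKM at 4.5DDC, 115, 129 and 140 FPKM at 5.5DDC, and 109, 46.2 and 69.6 FPKM at 6.5DDC. The value of replicate 1 at 6.5DDC was above that of replicate 3 at 4.5DDC, so the time points overlapped. The log2 fold change was -1.38 (SE 0.37, n = 3 and 3, adjusted p = 0.0297 by edgeR, quasi-likelihood with Benjamini-Hochberg adjustment), and all 3 replicate numbers fell. The adjusted p in edgeR was 0.0797 without replicate 1 of 4.5DDC, 0.0961 without replicate 2 of 4.5DDC, 0.0901 without replicate 2 of 6.5DDC and 0.0637 without replicate 3 of 6.5DDC. It was 0.0606 when only the 6 libraries compared were fitted, and 0.0573 and 0.0681 in limma on log2(FPKM + 1) and log2(FPKM + 0.1), so that Eno1 was called in 14 of 21 alternatives.

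Eno2, the neuronal enolase, was at 5.05, 2.99 and 1.5 FPKM at 4.5DDC and at 2.80, 6.69 and 7.37 FPKM at 6.5DDC. Its log2 fold change of 1.18 (SE 0.41) did not pass (adjusted p = 0.0696 by edgeR's quasi-likelihood test). It passed in 5 of 21 alternatives, which were DESeq2 (adjusted p = 0.0237), a term for replicate 1 in edgeR (0.0365), and edgeR without replicate 1 of 4.5DDC (0.0421), of 6.5DDC (0.039) or of all time points (0.00741). The share of Eno2 in enolase was 1.65% ± 0.297 at 4.5DDC, 3.46% ± 0.978 at 5.5DDC and 8.24% ± 5.21 at 6.5DDC (SD, n = 3), and was 2.5%, 12.7% and 9.57% in replicates 1, 2 and 3 of 6.5DDC. The 4.5DDC and 6.5DDC shares did not overlap (exact two-sided permutation test, p = 0.1, the smallest possible). These shares rest on FPKM and are given as uncertain. Eno1 had only 169 to 1120 counts per library at 46.2 to 249 FPKM, whereas Eno2 had 51 to 345 counts at 1.5 to 7.37 FPKM. In replicate 2 of 6.5DDC the counts were 169 for Eno1 and 182 for Eno2, so the share of Eno2 in counts was far larger. Replicate 1 had the lowest summed neuron markers at each time point. Its Eno2 share in FPKM was the lowest at 6.5DDC but the highest at 4.5DDC (1.99% against 1.53% and 1.43%) and at 5.5DDC (4.52% against 3.24% and 2.6%). The part of neuronal RNA was not tested.

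Pkm, which encodes pyruvate kinase, was the most abundant of the 35 genes, with a mean of 334 FPKM over 9 libraries. It was at 499, 455 and 307 FPKM at 4.5DDC, 304, 380 and 386 FPKM at 5.5DDC, and 313, 150 and 209 FPKM at 6.5DDC. Replicate 1 of 6.5DDC overlapped the lowest library of 4.5DDC. The log2 fold change was -0.90 (SE 0.27, adjusted p = 0.0435 by edgeR, quasi-likelihood with Benjamini-Hochberg adjustment), and the adjusted p reached 0.137 without replicate 2 of 6.5DDC. It was also above 0.05 without replicate 1 (0.11) or 2 (0.121) of 4.5DDC, replicate 2 (0.0654) or 3 (0.0647) of 5.5DDC, or replicate 3 of 6.5DDC (0.107). With only the 6 libraries compared it was 0.0778, and in limma on FPKM 0.0635 and 0.0748, which leaves Pkm called in 12 of 21 alternatives. The exons of the PKM1 and PKM2 forms were not counted apart. Exons of Gm49759 on the same strand cover 15.3% of the exonic bases of Pkm.

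Slc16a1 encodes the monocarboxylate transporter MCT1, which carries lactate and pyruvate in either direction. It was at 17.4, 16.0 and 20.4 FPKM at 4.5DDC, 9.56, 12.3 and 12.9 FPKM at 5.5DDC, and 12.5, 9.30 and 7.77 FPKM at 6.5DDC. All values of 5.5DDC and 6.5DDC were below those of 4.5DDC. It fell by a log2 fold change of -0.87 (SE 0.22, adjusted p = 0.023 by edgeR, quasi-likelihood with Benjamini-Hochberg adjustment). The adjusted p in edgeR was above 0.05 without replicate 3 of 4.5DDC (0.0692), replicate 2 of 6.5DDC (0.0873) or replicate 3 of 6.5DDC (0.0591).

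Slc16a3, the exporter MCT4, was at 11.8, 4.42 and 5.59 FPKM at 4.5DDC, 4.63, 12.8 and 10.5 FPKM at 5.5DDC, and 14.5, 2.47 and 3.82 FPKM at 6.5DDC. Replicate 1 had the same place as for Ldha at each time point. Over the whole span its log2 fold change was -0.10 (SE 0.69). Ldhb, the lactate dehydrogenase subunit that favours pyruvate, ranged from 43.2 to 75.3 FPKM over the 9 libraries. Its share in lactate dehydrogenase was 12.1%, 52.2% and 47.7% in replicates 1, 2 and 3 of 6.5DDC. The means were 25.1% ± 10.0 at 4.5DDC and 37.3% ± 22.0 at 6.5DDC (SD, n = 3; exact two-sided permutation test, p = 0.5).

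Ndrg1, an N-myc downstream regulated gene induced by hypoxia, rose by a log2 fold change of 1.02 (SE 0.30, adjusted p = 0.0416 by edgeR, quasi-likelihood with Benjamini-Hochberg adjustment). Its FPKM values overlapped between 4.5DDC (2.95, 2.78 and 5.21) and 6.5DDC (5.73, 4.48 and 5.14), and on log2(FPKM + 0.1) limma gave 0.53 with an adjusted p of 0.327. Counts and FPKM disagree for Ndrg1, since their ratio varied over libraries by 0.88 on the log2 scale, against a median of 0.17 over 9337 genes. The adjusted p in edgeR was above 0.05 without replicate 1 (0.109) or 2 (0.138) of 4.5DDC, replicate 2 (0.0617) or 3 (0.0558) of 5.5DDC, or replicate 1 (0.0723), 2 (0.103) or 3 (0.0725) of 6.5DDC. Exons of genes on the opposite strand cover 8.43% of its exonic bases, and whether strand was used in counting is not stated.

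**Figure D5:**
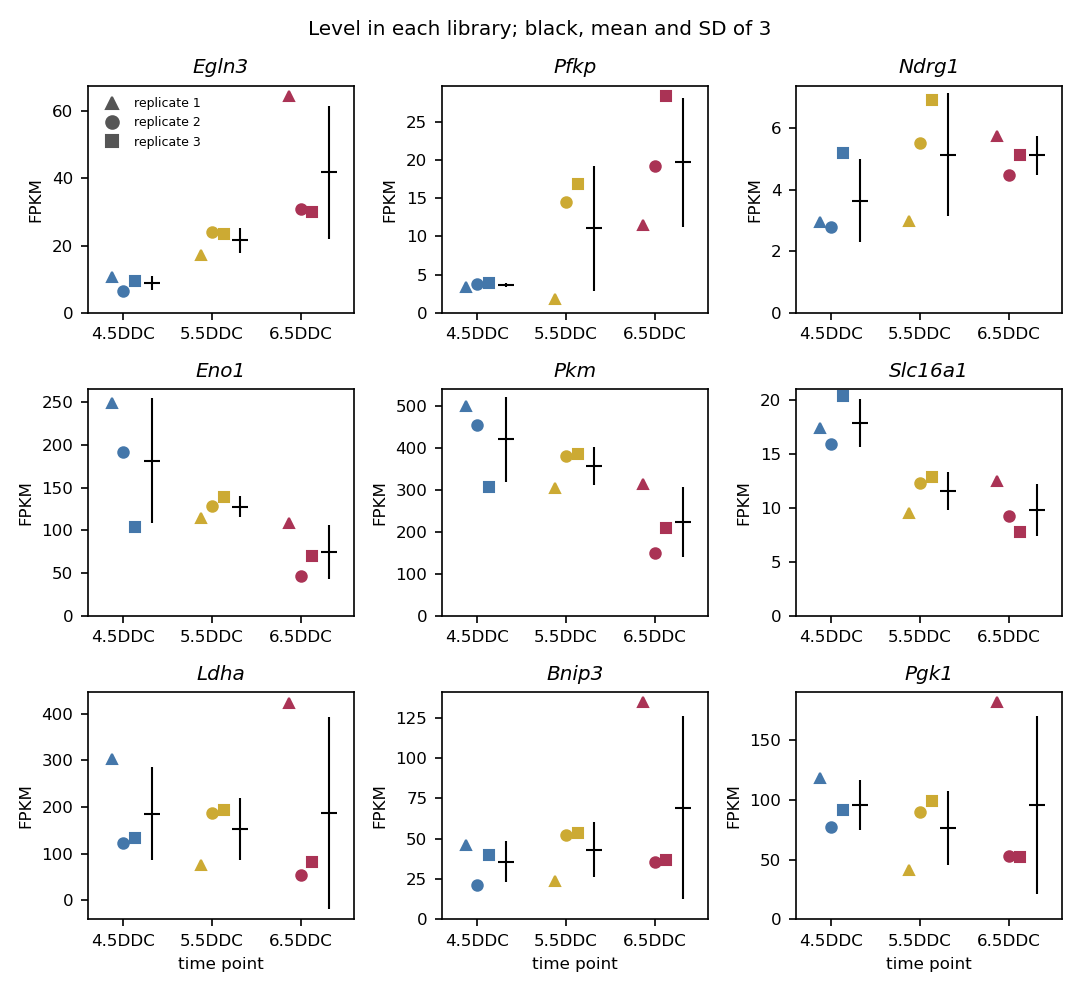
FPKM (vertical axis) of 9 genes at each time point (horizontal axis), with a triangle for replicate 1, a circle for replicate 2 and a square for replicate 3, and the mean and SD of 3 in black. Egln3 runs from 6.57 to 64.7 FPKM without overlap of time points, while replicate 1 of Ldha, Bnip3 and Pgk1 lies outside the range of replicates 2 and 3 at each time point.

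The remaining hypoxia targets did not pass the test over the whole span. Vegfa, the vascular growth factor, was at 67.6, 50.9 and 48.4 FPKM at 4.5DDC and 38.5, 24.8 and 45.4 FPKM at 6.5DDC, all lower, with a log2 fold change of -0.47 (SE 0.20, adjusted p = 0.125 by edgeR's quasi-likelihood test). P4ha1, a collagen prolyl hydroxylase, was at 27.9, 14.7 and 23.2 FPKM at 4.5DDC and 72.0, 25.4 and 25.7 FPKM at 6.5DDC, with a log2 fold change of 0.92 (SE 0.43). Replicate 1 of 6.5DDC was again far above the other 2. Ankrd37, an ankyrin repeat protein with only 21 to 64 counts per library, and Ddit4, an inhibitor of mTORC1 signalling, had log2 fold changes of 0.12 (SE 0.50) and -0.23 (SE 0.32). Exons of genes on the opposite strand cover 26.4% of the exonic bases of Ankrd37 and 22.3% of those of Bnip3.

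Among the transporters, Slc2a1, the main glucose transporter of progenitors, ranged from 25.3 to 80.8 FPKM and Slc2a3, the neuronal one, from 6.42 to 22.7 FPKM. Their log2 fold changes were -0.36 (SE 0.36) and 0.11 (SE 0.39). Hexokinases Hk1 and Hk2, which trap glucose by phosphorylation, had log2 fold changes of 0.37 (SE 0.16) and 0.55 (SE 0.43). Hk2 was at 14.7, 19.0 and 33.9 FPKM at 4.5DDC, 14.4, 47.3 and 48.3 FPKM at 5.5DDC and 51.4, 33.1 and 27.4 FPKM at 6.5DDC. None of the 4 passed the test by edgeR (adjusted p from 0.126 to 0.862).

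The other enzymes of upper and lower glycolysis differed widely in level. Tpi1 was at 436, 241 and 158 FPKM at 4.5DDC, 186, 295 and 336 FPKM at 5.5DDC, and 431, 91.1 and 178 FPKM at 6.5DDC. Aldoa, the main aldolase, was at 353, 250 and 158 FPKM at 4.5DDC and 373, 102 and 152 FPKM at 6.5DDC, while Aldoc, the brain aldolase, was at most 23.4 FPKM. The glucose phosphate isomerase Gpi1 ranged from 65.7 to 133 FPKM, with a log2 fold change of -0.05 (SE 0.23). Phosphoglycerate mutase Pgam1 ranged from 39.6 to 111 FPKM and had a log2 fold change of -1.07 (SE 0.46, adjusted p = 0.128 by edgeR's quasi-likelihood test). The log2 fold changes of Tpi1 (0.08, SE 0.52), Aldoa (-0.30, SE 0.44), Aldoc (-0.24, SE 0.36), Pfkl (-0.42, SE 0.54) and Pfkm (0.24, SE 0.16) were within 2 SE of 0.

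Some of these genes have near-identical copies elsewhere in the genome, and how reads shared with a copy were counted was not tested, so their values are given as uncertain. The copies named here were chosen after their values were seen. Pgk1 had only 170 to 484 counts per library, at 41.2 to 182 FPKM, whereas Ldha had 1340 to 8345 counts at 55.0 to 424 FPKM. The processed copy Pgk1-rs7 had 1 to 12 counts, but 58.8 to 258 FPKM, above Pgk1 itself. Pgam1 had 56 to 345 counts, and its copy Pgam1-ps2 had 9 to 29 counts at 43.6 to 118 FPKM. Over the 9 libraries the ratio of FPKM to counts varied by 1.02 on the log2 scale for Pgam1, 1.04 for Slc2a3 and 0.62 for Eno1, and by over 0.5 for 11 of the 33 genes. For Pgk1 and Ldha it varied by only 0.26 and 0.08, and the part of copies in this ratio was not tested. Gapdh, outside the 35 genes, had 54 to 197 counts at 69.3 to 188 FPKM and a ratio that varied by 1.91.

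Pdk1, Pfkfb3 and Pfkfb4 set how glucose carbon is used. Pdk1, a kinase that closes pyruvate dehydrogenase, was at 30.7, 8.34 and 19.7 FPKM at 4.5DDC, 15.0, 16.7 and 13.8 FPKM at 5.5DDC, and 34.4, 9.61 and 10.1 FPKM at 6.5DDC, with a log2 fold change of 0.33 (SE 0.50). Pfkfb3 and Pfkfb4, which make the activator of phosphofructokinase, were at 2.34 to 10.2 and 4.36 to 7.44 FPKM, with log2 fold changes of 0.18 (SE 0.47) and 0.05 (SE 0.20). Pfkfb3 was lowest in replicate 1 at each time point, unlike Pdk1.

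In the shorter intervals, edgeR's quasi-likelihood test called 0 of the 33 genes between the first 2 time points and 0 between the last 2. At an unadjusted p under 0.05 the counts were 2 and 4, or 6.06% and 12.1%, below the 15.4% and 18.5% of all genes. DESeq2 called 1 gene in each interval, Egln3, or 3.03% against 3.36% and 4.55% of all genes in the same tool. Limma voom without normalization called 0, against 0.0746% and 0.251% of all genes. Limma on FPKM also called 0, against 0.0489% to 0.0612% of all genes. At an adjusted p under 0.05 in edgeR the background was 0.0746% and 0.224% of all genes, or 11 and 33 of 14742. With the replicate number as a block, edgeR again called 0 of the 33 genes in each interval, and 212 and 195 of all genes, or 1.44% and 1.32%. No gene differed in change between the 2 intervals (0 of 14742, 0% of all genes in edgeR, 0 of the 33 genes at an unadjusted p under 0.05 and 701 over all). Over all genes, this count was 1 without replicate 2 of 5.5DDC and 2 without replicate 1 of 6.5DDC.

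With replicate 1 left out at all 3 time points, an alternative chosen after seeing the data, the picture between 5.5DDC and 6.5DDC was different. In these 6 libraries 9 of 33 genes were lower at 6.5DDC, or 27.3% against a background of 2.51%, and 0 were higher. Over all genes 4.97% were called in this interval, of which 49.5% were higher. The background of higher genes was thus also small. The 9 lower genes were Ldha, Slc16a3, Tpi1, Aldoa, Pgam1, Pkm, Hk2, Ddit4 and Egln1. Ldha had a log2 fold change of -1.53 (SE 0.20) and Slc16a3 of -2.0 (SE 0.36), both in the fit of replicates 2 and 3, with adjusted p of 0.0114 and 0.027 by edgeR's quasi-likelihood test. Replicate 1 went the other way in all 9, by 2.55 for Ldha and 1.84 for Slc16a3 in log2 CPM. From 4.5DDC to 5.5DDC, 2 genes were higher, Egln3 and Pfkp, or 6.06% against 2.42%. From 4.5DDC to 6.5DDC, 5 genes were higher, or 15.2% against 16.5%, and 8 lower, or 24.2% against 14.8%. The higher ones were Egln3, Pfkp, Ndrg1, Eno2 and Hk1, and the lower ones Eno1, Pkm, Slc16a1, Pgam1, Ldha, Pgk1, Slc2a1 and Egln1.

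Other genes of the pathways are given by their lists, to be read against the background of 9.21% of all genes higher and 9.53% lower at 6.5DDC. Of 15 other glycolytic genes tested, 1 rose from 4.5DDC to 6.5DDC, the transporter Slc2a12 (log2 fold change 1.76, SE 0.28), and 2 fell, Gapdh (-1.30, SE 0.28) and the insulin-responsive transporter Slc2a4 (-1.16, SE 0.25). Counts and FPKM disagree for Gapdh. Its mean FPKM gave a log2 fold change of -0.68, and its FPKM values overlapped between 4.5DDC and 6.5DDC. Of 12 genes of pyruvate entry into mitochondria, 2 rose, the kinase Pdk2 (1.66, SE 0.32) and the phosphatase Pdp1 (0.92, SE 0.23), which act on pyruvate dehydrogenase in opposite directions. Of 18 pentose phosphate and glycogen genes, the phosphorylase Pygb rose (0.47, SE 0.11) and the transketolase Tkt fell (-1.12, SE 0.24). Of 13 other HIF pathway genes, 1 rose, Vhl (0.46, SE 0.13), which directs hydroxylated HIF alpha to degradation. With the replicate number as a block, Vhl was no longer called (adjusted p = 0.055 in edgeR). Another gene of this list was then called, so that 1 was still higher.

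The list of 38 other hypoxia targets had 9 genes that rose and 3 that fell over the whole span, with a median log2 fold change of 0.44. These are 23.7% and 7.89% of the list, against 9.21% and 9.53% of all genes. The largest changes were those of Ndufa4l2, a mitochondrial protein (-2.56, SE 0.79), Ppp1r3c, a glycogen targeting subunit (2.22, SE 0.45), Stc1, a secreted glycoprotein (2.08, SE 0.55), and Bhlhe41, a transcriptional repressor (1.93, SE 0.49). Ndufa4l2 had only 1 to 15 counts per library and at most 1.06 FPKM, with an adjusted p of 0.0486 in edgeR. The direction differed between targets. Of 11 ATF4 stress targets, 1 rose, the cystine transporter subunit Slc7a11 (1.73, SE 0.25), and 2 fell, Psat1 and Asns (-1.20, SE 0.37 and -0.68, SE 0.20), which make serine and asparagine. Psat1 was not called with the replicate block (adjusted p = 0.0505 in edgeR). Of 10 Myc and growth regulators, 0 rose and 3 fell, Mycn (-1.39, SE 0.33), Ptbp1 (-1.18, SE 0.22) and Trp53 (-1.0, SE 0.20). Ptbp1 is a splicing factor that promotes the PKM2 form of Pkm. All 7 proliferation markers fell and 6 of 7 radial glia and astrocyte markers rose over the same span. Of 11 progenitor markers 1 rose and 2 fell, of 11 neuron markers 2 rose, of 6 neural crest and 5 endothelial and blood markers 1 each rose, and none of 5 endoderm markers, 2 pluripotency markers or 4 near-identical copies passed the test.

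With the replicate number as a block, the background was 13% of all genes higher and 10.2% lower at 6.5DDC, and some lists had other counts. Of 5 endoderm markers 4 were higher, of 6 neural crest and mesenchyme markers 4 were higher, and of 2 pluripotency markers 1 was lower. Neuron markers had 4 of 11 higher. Other hypoxia targets had 13 of 38 higher and 3 lower, and pentose phosphate and glycogen genes 1 of 18 higher and 4 lower. Other glycolytic genes had 1 of 15 higher and 3 lower, and progenitor markers 2 of 11 higher and 2 lower. All 7 radial glia and astrocyte markers were higher.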

How the data were processed

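The 9 RNA-seq libraries were made with Illumina TruSeq and polyA selection. By the study's methods they were sequenced single-end on an Illumina HiSeq instrument. The authors aligned the reads with TopHat2 2.0.4 to GRCm38, and the deposited estimated count table came from htseq-count (HTSeq 0.6.1), with the annotation release and strand setting not given in the sources used here. The deposited FPKM values came from Cufflinks 2.1.1. A deposited table of limma voom values was not used, since it rescales the counts.

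Of 38197 gene symbols, 98 held counts that were not whole, 0 of them among the 35 genes. Counts were taken as whole in the plan and were rounded. Genes were filtered by filterByExpr on time point, scaled by TMM (factors 0.951 to 1.04) and fitted in one edgeR model of 9 libraries (R 4.3.3, edgeR 4.0.16, limma 3.58.1, DESeq2 1.42.0; Python figures by matplotlib), at an adjusted p of 0.05, with 6 residual degrees of freedom. The fit was tested on simulated data. Changes are log2 fold changes, and replicates are compared as log2 CPM with a prior count of 2. Each SE was derived from the test, as the absolute log2 fold change divided by the square root of its quasi-likelihood F statistic. Exonic overlaps are from the GENCODE annotation of build GRCm38, promoter sequences from RefSeq in GRCm38.p6.

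Replicate numbers come from the titles. Same-numbered libraries had deviations from the time-point means that correlated over 14742 genes by 0.743, 0.386 and 0.452 between 4.5DDC and 5.5DDC, by 0.454, 0.367 and 0.197 between 5.5DDC and 6.5DDC, and by 0.383, -0.0396 and -0.215 between 4.5DDC and 6.5DDC. Replicate 1 correlated negatively with replicates 2 and 3 of the other time points (-0.653 to -0.123). Between 4.5DDC and 5.5DDC, libraries 2 and 3 of different numbers correlated by 0.39 and 0.291, against 0.386 and 0.452 for the same number. Between 5.5DDC and 6.5DDC the values were 0.405 and 0.225 against 0.367 and 0.197. Between 4.5DDC and 6.5DDC they were 0.487 and 0.46 against -0.0396 and -0.215. Replicate 1 thus stands apart, and a pairing of numbers 2 and 3 across the 3 time points is not shown. The members and lists were chosen with earlier results of these data known. The genes named for a change are all 35 and, from each other list, at most the 4 called from 4.5DDC to 6.5DDC with the largest absolute log2 fold change. Some marker genes and near-identical copies are named for their level, whether called or not. Alternatives covered scaling, filters, other tools, FPKM, the replicate block and libraries left out.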

Additional observations from a re-analysis of the deposited data

How the results depend on the processing

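Of 693 values recomputed under 21 alternatives, 588 kept their direction and side of the threshold, 36 lost a call, 16 gained one, and 55 changed sign, none of them of the 6 called genes. The 16 include 2 that also changed sign, Ldha and Pgk1 without replicate 1. DESeq2 gave no adjusted p for 1 value, that of Ldha, which was counted as not called. These are the fold changes of the 33 genes between 4.5DDC and 6.5DDC, of which 17 never changed sign. Egln3 was called in all 21. With no scaling beyond the library total, the counts called were 55 of all genes 5.5DDC to 6.5DDC, 2 of the 33 genes over the 3 time points and the log2 fold changes that changed sign were -0.0116 for Ldha. With no filter on low counts, the counts called were 25 of all genes 4.5DDC to 5.5DDC, 78 of all genes 5.5DDC to 6.5DDC, 4 of the 35 genes, all then tested, over the 3 time points. With limma voom and no normalization, the counts called were 2 of the 33 genes over the 3 time points and the log2 fold changes that changed sign were -0.2039 for Tpi1, -0.2697 for Pgk1, -0.5063 for Ldha, -0.1004 for Ankrd37. With DESeq2, the counts called were 495 of all genes 4.5DDC to 5.5DDC, 1 of the 33 genes 4.5DDC to 5.5DDC, 671 of all genes 5.5DDC to 6.5DDC, 1 of the 33 genes 5.5DDC to 6.5DDC, 2976 of all genes over the 3 time points, 6 of the 33 genes over the 3 time points. With limma on log2(FPKM + 1), the counts called were 8 of all genes 5.5DDC to 6.5DDC, 2 of the 33 genes 4.5DDC to 6.5DDC, 778 of all genes over the 3 time points and the log2 fold changes that changed sign were -0.4131 for Tpi1, -0.2392 for Pgk1, -0.4456 for Ldha, -0.185 for Pdk1. With limma on log2(FPKM + 0.1), the counts called were 9 of all genes 5.5DDC to 6.5DDC, 2 of the 33 genes 4.5DDC to 6.5DDC, 652 of all genes over the 3 time points and the log2 fold changes that changed sign were -0.4158 for Tpi1, -0.244 for Pgk1, -0.4515 for Ldha, -0.1967 for Pdk1. With the replicate number as a block, the counts called were 212 of all genes 4.5DDC to 5.5DDC, 195 of all genes 5.5DDC to 6.5DDC, 2180 of all genes over the 3 time points, 2 of the 33 genes over the 3 time points and the log2 fold changes that changed sign were -0.07853 for Tpi1, -0.04149 for Pgk1, -0.2742 for Ldha. With a term for replicate 1, the counts called were 484 of all genes 4.5DDC to 5.5DDC, 1 of the 33 genes 4.5DDC to 5.5DDC, 634 of all genes 5.5DDC to 6.5DDC, 4382 of all genes 4.5DDC to 6.5DDC, 3287 of all genes over the 3 time points, 6 of the 33 genes over the 3 time points and the log2 fold changes that changed sign were -0.07207 for Tpi1, -0.0486 for Pgk1, -0.2676 for Ldha. With only the 6 libraries compared, the counts called were 1 of all genes 4.5DDC to 5.5DDC, 0 of all genes 5.5DDC to 6.5DDC. With replicate 1 left out of all time points, chosen after seeing the data, the counts called were 485 of all genes 4.5DDC to 5.5DDC, 2 of the 33 genes 4.5DDC to 5.5DDC, 728 of all genes 5.5DDC to 6.5DDC, 9 of the 33 genes 5.5DDC to 6.5DDC, 4586 of all genes 4.5DDC to 6.5DDC, 13 of the 33 genes 4.5DDC to 6.5DDC, 3316 of all genes over the 3 time points, 15 of the 33 genes over the 3 time points and the log2 fold changes that changed sign were -0.1013 for Hk2, -0.5162 for Tpi1, -0.7265 for Pgk1, -0.9719 for Ldha, -0.152 for Pdk1, -0.2205 for Ankrd37. The block gave 3418 genes, or 23.2%, and 7 of the 33 genes, or 21.2%, between 4.5DDC and 6.5DDC. Over that span limma on log2(FPKM + 1) and log2(FPKM + 0.1) called 6.06% of the 33 genes, against 14% and 13.3% of all genes. With a term for replicate 1, the share from 4.5DDC to 5.5DDC was 3.03% against 3.28%. Without all of replicate 1 it was 6.06% against 3.31% in that interval and 27.3% against 4.97% from 5.5DDC to 6.5DDC. It was then 39.4% against 31.3% from 4.5DDC to 6.5DDC and 45.5% against 22.7% over the 3 time points. Leaving out 1 library at a time gave 0 to 196 for genes 5.5DDC to 6.5DDC, 1 to 9 for counts of the 33 genes 4.5DDC to 6.5DDC, 1 to 28 for genes 4.5DDC to 5.5DDC, 1125 to 3132 for genes 4.5DDC to 6.5DDC, 323 to 1831 for genes over the 3 time points, 1 to 3 for counts of the 33 genes over the 3 time points, -0.1945 to 0.5792 for Slc2a3, -0.2458 to 0.1609 for Gpi1, -1.305 to 0.082 for Pfkl, -1.057 to 0.03249 for Aldoa, -0.9073 to 0.4697 for Tpi1, -0.8401 to 0.3888 for Pgk1, -1.507 to 0.5665 for Ldha, -1.344 to 0.3514 for Slc16a3, -0.08764 to 0.3941 for Pfkfb3, -0.1326 to 0.145 for Pfkfb4, -0.5121 to 0.6855 for Pdk1, -0.2009 to 0.1083 for Hif1a, -0.207 to 1.252 for Bnip3, -0.5566 to 0.4577 for Ankrd37, -0.6954 to 0.01011 for Ddit4, 0 to 2 for difference between the changes of the 2 intervals, 0.1282 to 0.8754 for Hk2. The cause was not tested.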
